A study of Homo sapiens with 6 samples.

Results

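The extracellular matrix genes described here are TGFBI, FN1, THBS1, THBS2, SPARC, SPOCK1, BGN, VCAN, FBLN2 and PCOLCE2, taken by gene symbol from the 27754 genes counted in T47D cells. They code for matricellular proteins, which sit in the matrix and signal to cells more than they build structure, and for proteoglycans, adhesive glycoproteins and a processing factor. The 10 were picked with earlier results of these same libraries known, as matrix genes of the epithelial to mesenchymal transition (EMT) type that split in direction between hypoxia and normoxia. Their difference between the conditions is therefore a description: no p-value is given for a member, and how many members the fit across all genes called is given only beside the share of all genes called.

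T47D is an established luminal breast cancer cell line. Messenger RNA was sequenced from 3 libraries of cells under the usual culture condition (20% O2, normoxia) and from 3 libraries of cells kept for 48 h in a chamber set to 0.5% O2 (hypoxia), all in RPMI medium with 10% FBS and with no other treatment. The study's text gives a higher O2 level for hypoxia than the labels do. The labels do not say whether the replicates were separate cultures, while the study describes its data as coming from independent experiments and its hypoxia and normoxia samples as paired. The errors and p-values below measure the spread between these libraries.

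The matrix that these genes encode is laid down mostly by fibroblasts in the breast, and carcinoma cells add to it. Fibronectin (FN1) and the TGF-beta-induced protein (TGFBI) are adhesive glycoproteins bound by integrins. Thrombospondins (THBS1 and THBS2) are secreted glycoproteins that restrain angiogenesis, and THBS1 can activate latent TGF-beta. SPARC and testican (SPOCK1) share a calcium-binding module, and SPOCK1 also carries glycosaminoglycan chains. Biglycan (BGN) is a small leucine-rich proteoglycan and versican (VCAN) a large one that binds hyaluronan, both with chondroitin or dermatan sulfate chains. Fibulin-2 (FBLN2) joins basement membranes and elastic fibres, and PCOLCE2 is an enhancer of the proteinase that trims procollagen.

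The libraries held between 32989104 and 89883409 counts, with hypoxia replicate 3 the deepest. Before TMM scaling, a gene with 3 counts was at 0.0334 CPM (counts scaled to library size) in the deepest library and at 0.0909 CPM in the shallowest. All 8 genes of a hypoxia check list were called higher in hypoxia, among them VEGFA (log2-fold change 4.36, SE 0.13, adjusted p = 5.16e-06, edgeR) and CA9 (5.29, SE 0.38, adjusted p = 6.16e-05, edgeR). Of 10 luminal epithelial markers, all were counted in every library, and their summed level was between 14157 and 18346 CPM in normoxia and between 10279.9 and 13571 CPM in hypoxia. ESR1, PGR, GATA3, FOXA1 and SPDEF, the transcription factors of that list, were called lower in hypoxia and 0 of the 10 were called higher. Of all genes tested, 29.1% were called lower and 30.4% higher. KRT8, KRT18, KRT19, CDH1 and EPCAM were called in neither direction. In markers of vimentin-positive cells the libraries numbered 3 stood apart in both conditions, and these values stand beside SPARC, the member they move with. In bulk RNA, fewer cells of a type and less RNA per cell cannot be told apart.

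Of the 10 genes, 9 had libraries that did not overlap between conditions, 7 of them higher and 2 lower in hypoxia. Over all 15657 genes that passed a filter on low counts, 34.9% had every hypoxia library above every normoxia library and 32.4% had every one below. Of the 9 members that passed this filter, edgeR's quasi-likelihood test with Benjamini-Hochberg adjustment at 0.05 called 6 higher and 2 lower, beside 30.4% and 29.1% of all genes tested. Nothing is read from these shares, because the members were picked on this contrast and several passed the filter only through hypoxia. Blocked by replicate number, the members split 6 and 2 as well, beside 36.6% and 35.2% of all genes. Without both libraries numbered 3 the shares of all genes were 36.4% and 34.8%. Over all 6 libraries, 15.2% and 4.91% of genes were called with a log2-fold change of at least 1 in size. THBS2 did not pass the filter and SPARC was called in neither direction. Values below are TMM-normalized CPM, and ± is the SD of 3 libraries.

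**Figure D1:**
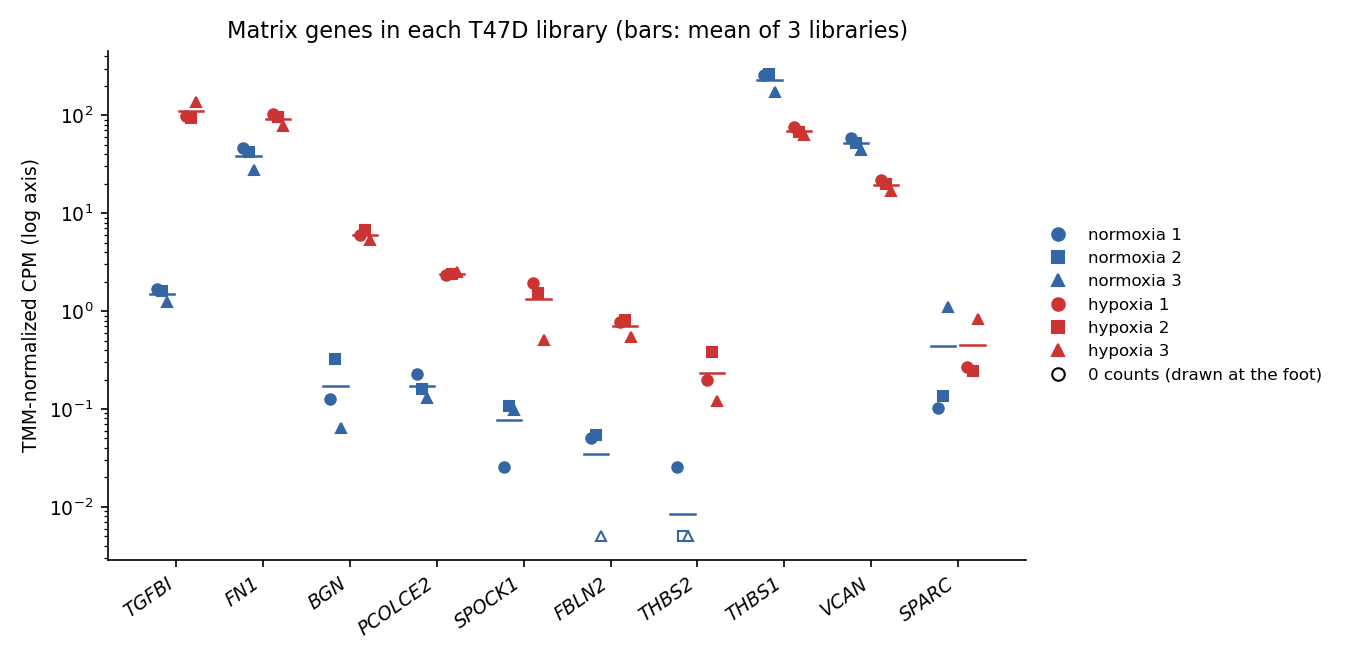
TMM-normalized CPM (log axis) of the 10 matrix genes in each library, with normoxia in blue, hypoxia in red, a marker shape for each replicate number and a short bar at the mean of 3 libraries. TGFBI, FN1, BGN, PCOLCE2, SPOCK1, FBLN2 and THBS2 lie higher in every hypoxia library, THBS1 and VCAN lie lower, and SPARC is highest in replicate 3 of both conditions.

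TGFBI, an adhesive protein named for its induction by TGF-beta, had the largest difference of the members. Its counted exons form 17 blocks on the forward strand at chr5:135364584-135399507 (GRCh37), and it was at 1.67, 1.61 and 1.23 CPM in normoxia replicates 1, 2 and 3. The hypoxia replicates held 98.4, 92.9 and 137.9 CPM. Every hypoxia library was far above every normoxia library, and replicate 3 was the lowest normoxia library and the highest hypoxia library. The means were 1.504 ± 0.241 and 109.7 ± 24.6 CPM, a log2-fold change of 6.18 (SE 0.21). By size of increase TGFBI stood at place 32 of the 15657 genes, of which 0.211% had a log2-fold change of at least 6.

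FN1, the fibronectin gene and a common EMT marker, was already well expressed in normoxia. It lies on the reverse strand at chr2:216225163-216300793 with 46 exon blocks, and was at 46.8, 41.9 and 27.8 CPM in the normoxia replicates. In the hypoxia replicates it was at 102.2, 95.9 and 78.0 CPM. Replicate 3 was the lowest library in both conditions, and the conditions did not overlap. The log2-fold change was 1.24 (SE 0.19), a size that many genes had, since 15.6% of those tested reached a log2-fold change of at least 1.

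The other members that were higher in hypoxia started from near-silence. BGN, on chromosome X at chrX:152760347-152775012 (forward strand), was counted 5, 12 and 2 times in normoxia and 244, 248 and 485 times in hypoxia. The level was 0.171 ± 0.135 CPM against 6.04 ± 0.737 CPM, a log2-fold change of 5.08 (SE 0.39). The hypoxia libraries lay within 1.28 times of each other, while the normoxia libraries were 4.99 times apart at their few counts. PCOLCE2 (chr3:142536702-142608045, reverse strand) had 9, 6 and 4 counts in normoxia and 95, 87 and 232 counts in hypoxia. At 2.35, 2.38 and 2.54 CPM its hypoxia libraries were the most alike of any member, and its log2-fold change was 3.77 (SE 0.27).

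SPOCK1 (chr5:136310987-136835018, reverse strand) had 1, 4 and 3 counts in normoxia and 78, 56 and 46 counts in hypoxia. Hypoxia replicate 3 had the fewest counts of these although it was the deepest library, and at 0.503 CPM it was well under the 1.93 and 1.53 CPM of hypoxia replicates 1 and 2. The log2-fold change of 4.05 had the widest error of the members fitted, after SPARC (SE 0.71). FBLN2 (chr3:13590625-13679922, forward strand) had 2, 2 and 0 counts in normoxia and 31, 30 and 50 counts in hypoxia, with a log2-fold change of 4.14 (SE 0.55). Its summed counts gave a ratio of 17.7 (95% interval 6.73 to 66.2, exact binomial, which covers counting error only).

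THBS2 was the least counted member. It lies on the reverse strand at chr6:169615875-169654209 and had 1, 0 and 0 counts in normoxia and 8, 14 and 11 counts in hypoxia. All 3 hypoxia libraries were above all normoxia libraries, at 0.198, 0.383 and 0.120 CPM. The ratio of the summed counts, hypoxia over normoxia, was 21.1 with a 95% interval of 3.53 to 858, so its size was hardly fixed at this depth.

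THBS1, coding for thrombospondin-1, was the most abundant member in normoxia and was lower in hypoxia. It lies on the forward strand at chr15:39873280-39891121 with 22 exon blocks. It was at 257.7, 265 and 173.7 CPM in the normoxia replicates and at 76.1, 68.2 and 62.7 CPM in the hypoxia replicates. Normoxia replicate 3 was the lowest of its condition and still more than the highest hypoxia library. The log2-fold change was -1.75 (SE 0.17), which is 3.37-fold lower in hypoxia, and by size of decrease it stood at place 119 of the genes tested. The paralogs THBS1 and THBS2 thus lay on opposite sides, at levels far apart.

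VCAN, coding for versican, was also lower in hypoxia. It lies on the forward strand at chr5:82767493-82878122 and its exon union of 12416 bases is the longest of the members. It was at 59.0, 51.8 and 44.4 CPM in normoxia and at 21.7, 19.8 and 17.0 CPM in hypoxia. The conditions did not overlap, and the log2-fold change was -1.41 (SE 0.13), or 2.66-fold lower. The pairs of same-numbered libraries differed by -1.44, -1.38 and -1.38 on the log2 scale, the narrowest range of any member.

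SPARC (osteonectin, chr5:151040657-151066615, reverse strand) differed more between replicate numbers than between conditions. Reads counted for replicates 1, 2 and 3 were 4, 5 and 34 under normoxia, then 11, 9 and 76 under hypoxia. At 1.10 and 0.831 CPM the libraries numbered 3 were above all others, which lay between 0.101 and 0.272 CPM. Within replicates 1 and 2 the hypoxia library was the higher of each pair, by 1.12 and 0.70 on the log2 scale, and within replicate 3 it was the lower. The means of 0.445 ± 0.566 and 0.450 ± 0.331 CPM gave a log2-fold change of 0.21 (SE 0.86). The value was 2.04 without normoxia replicate 3, -0.69 without hypoxia replicate 3, and 1.09 without both libraries numbered 3, where SPARC had too few counts to pass the filter and was fitted with all genes kept. The exons of SPARC share 190 bases with the antisense gene CLMAT3, which had 0 counts in all 6 libraries.

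SPARC was compared with 12665 genes that had a mean of at least 100 counts. Among these, VIM, the gene of the intermediate filament of mesenchymal cells, had the log2 CPM most like that of SPARC over the 6 libraries (Pearson r = 0.996, a description over libraries that share replicate numbers). VIM was at 0.177, 0.322 and 12.8 CPM in normoxia replicates 1, 2 and 3 and at 0.865, 0.957 and 11.0 CPM in hypoxia replicates 1, 2 and 3. Of 7 markers of vimentin-positive cells, 5 were highest in replicate 3 of both conditions, and 4 (VIM, CAV1, CAV2 and MSN) were there more than 3 times above both other replicates. CAV2 was at 0 in every library numbered 1 or 2. AXL and LGALS1 did not stand out in this way. AXL was called higher in hypoxia (log2-fold change 1.97, adjusted p = 2.33e-04, edgeR) and was the 1 of 6 tested markers of this list so called. With the replicate block 3 of these markers were called higher, beside 36.6% of all genes. Without both libraries numbered 3 the number was 4 of 5 tested, beside 36.4% of all genes. In that setting VIM, MSN and GSTP1 had at most 12 counts in a normoxia library and passed the filter only through hypoxia. Nothing is read from these counts of markers. LGALS1 made up most of the summed level of this list, which was between 187.5 and 202.2 CPM in normoxia and between 205.8 and 277.1 CPM in hypoxia. Among all genes tested, 0.121% were more than 3 times higher in replicate 3 of both conditions, and among the members SPARC alone was.

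**Figure D2:**
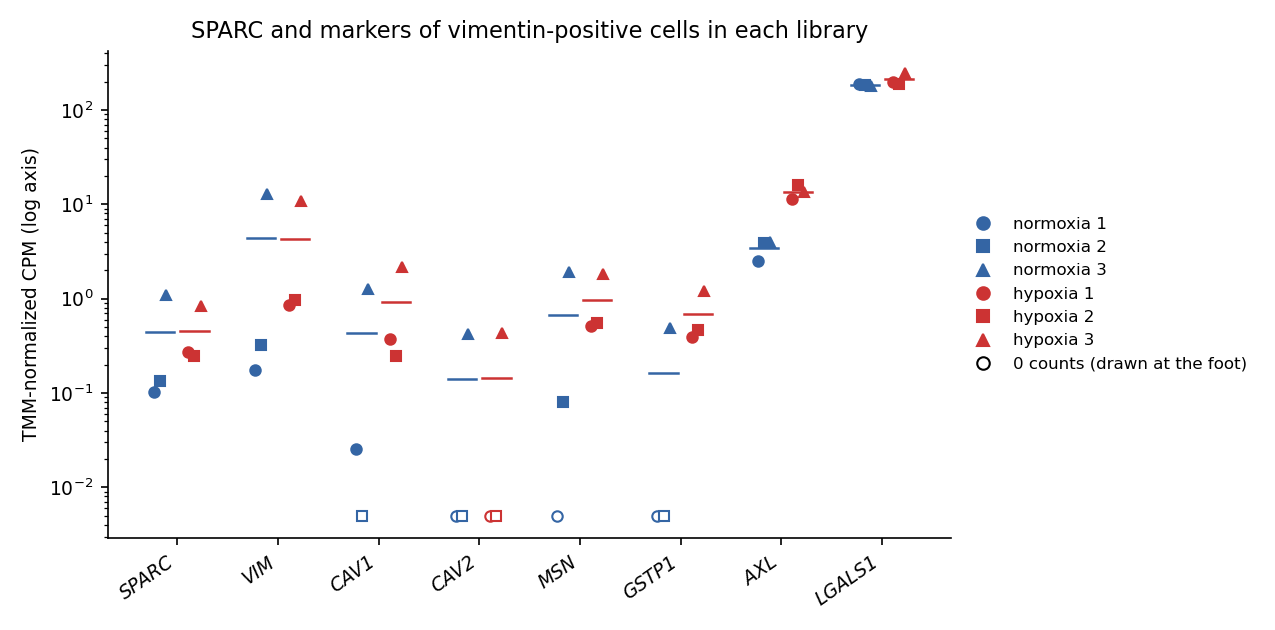
TMM-normalized CPM (log axis) of SPARC and of 7 markers of vimentin-positive cells in each library, with normoxia in blue, hypoxia in red and bars at the mean of 3 libraries. The triangles of replicate 3 stand above the other libraries of their condition for SPARC, VIM, CAV1, CAV2, MSN and GSTP1, and open symbols at the foot are libraries with 0 counts.

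Of 9 fibroblast markers, COL1A1, COL3A1 and FAP were highest in replicate 3 of both conditions, FAP by more than 3 times but with 3 counts there and 0 elsewhere. COL1A2, COL3A1, FAP, DCN and LUM never exceeded 14 counts and PDGFRA had 0 in all. PDGFRB and THY1, 2 of the 3 fibroblast markers tested, were called higher in hypoxia (adjusted p = 0.00624 and 0.00195, edgeR), beside 30.4% of all genes. They had 28 and 81 counts at most and are named after their values were seen. PDGFRB had 0, 0 and 3 counts in normoxia and passed the filter only through hypoxia, so it could only be called higher. COL1A1 had 2814 to 9062 counts, and it made up most of the summed level of 78.3 to 100.6 CPM. Endothelial and leukocyte markers (PECAM1, CDH5, VWF and PTPRC) summed to at most 0.569 CPM, and 3 of these 4 were highest in replicate 3 of both conditions. The part of any such cells in the values of SPARC was not tested. TGFBI, BGN, PCOLCE2, FBLN2 and SPOCK1 had log2-fold changes of 5.87, 4.83, 3.58, 3.85 and 4.67 without both libraries numbered 3, and FN1, THBS1 and VCAN had 1.16, -1.85 and -1.41.

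Levels of different genes were compared as CPM per kilobase of exon. In normoxia the order was THBS1 (32.1 ± 7.002), FN1 (4.32 ± 1.10), VCAN (4.17 ± 0.589) and TGFBI (0.536 ± 0.0860), with FN1 and VCAN overlapping. SPARC, PCOLCE2, BGN, SPOCK1, FBLN2 and THBS2 followed, all with means of 0.124 or less. SPARC overlapped PCOLCE2, PCOLCE2 overlapped BGN, SPOCK1 overlapped FBLN2, and FBLN2 overlapped THBS2.

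In hypoxia TGFBI led with 39.1 ± 8.75 CPM per kilobase, ahead of FN1 (10.2 ± 1.40) and THBS1 (9.53 ± 0.931), which overlapped each other. BGN (2.46 ± 0.300) then stood above VCAN (1.57 ± 0.189), the reverse of their order in normoxia, and PCOLCE2 (1.19 ± 0.0505) came next. SPOCK1, FBLN2 and SPARC overlapped in turn, with THBS2 last. Among the genes tested, ranked by mean CPM per kilobase, TGFBI moved from percentile 16.9 to 89.5 and BGN from 4.55 to 29.3, while THBS1 moved from 83.7 to 58.5 and VCAN from 40.6 to 23.3.

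The 10 genes together took 0.0313% ± 0.00692 of all counts in normoxia and 0.0314% ± 0.00103 in hypoxia, so their summed share differed by less than the spread between libraries. Per length, both the make-up and the sum differed. THBS1 held 76.8%, 79.1% and 76.1% of the summed CPM per kilobase in normoxia replicates 1, 2 and 3 and 16.7%, 15.9% and 12.1% in the hypoxia replicates. TGFBI held between 1.24% and 1.39% in normoxia and 55.7%, 55.8% and 68.5% in hypoxia. Per length the sum was 41.4 ± 8.55 CPM per kilobase in normoxia and 64.7 ± 6.37 in hypoxia, and the conditions did not overlap. The exon unions of TGFBI and THBS1 are 2805 and 7243 bases.

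**Figure D3:**
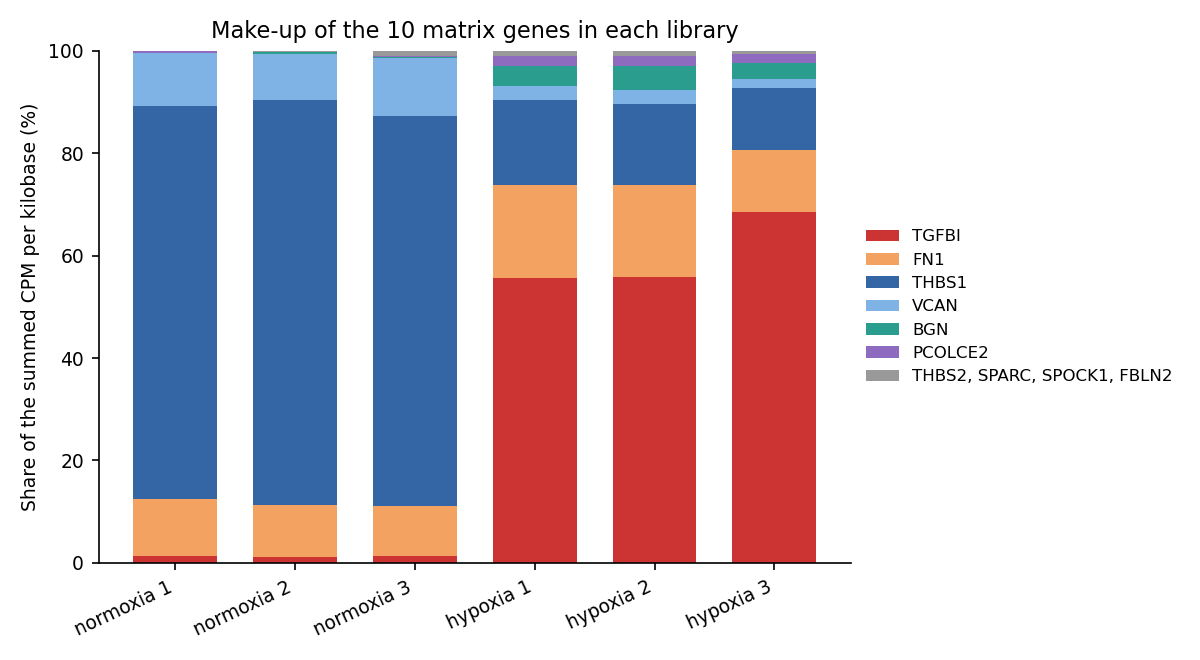
Share of each gene in the summed CPM per kilobase of the 10 matrix genes, 1 bar for each library. THBS1 fills 76.1% to 79.1% of the normoxia bars and TGFBI 55.7% to 68.5% of the hypoxia bars.

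The members lie on 6 chromosomes, and TGFBI, SPARC, SPOCK1 and VCAN lie on chromosome 5. Of these neighbours by chromosome, TGFBI and SPOCK1 were higher in every hypoxia library, VCAN was lower in every one, and SPARC overlapped. RefSeq promoters (GRCh38.p14 table) were given for 9 members, all except SPOCK1, and their 250 bases before the start each matched GRCh37 at 1 place on the member's chromosome. They were searched on both strands for ACGTG and GCGTG, the cores at which hypoxia-inducible factors are known to bind, and for other short motifs. A core was found in 2 of 9 members, THBS1 and THBS2, and in 43.2% of 35114 promoters in all. GGGCGG, a GC box, was found in 7 of 9 members, all but THBS2 and SPARC, and in 42.6% of all promoters. TATAAA was found in THBS2, from 29 to 24 bases before the start, and in 10.7% of all promoters, TGANTCA (an AP-1 site) in 0 of 9 members and 6.57%, and CCAAT in FN1 and THBS1 and 32% of all promoters. These are matches of letters, not sites of binding.

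The stretches upstream of the first counted exon are shown for TGFBI and BGN, which moved up in the per-length order, and for THBS1 and VCAN, which moved down, with a short stretch of THBS2 around its core. They are RefSeq sequences placed on GRCh37 and written 5′ to 3′ on the strand of the gene, and capitals mark a core (either spelling) or a GC box on either strand. In THBS1 the core GCGTG shares 1 base with a GC box, so both appear as 1 run of capitals.
TGFBI, chr5:135364427-135364583, forward: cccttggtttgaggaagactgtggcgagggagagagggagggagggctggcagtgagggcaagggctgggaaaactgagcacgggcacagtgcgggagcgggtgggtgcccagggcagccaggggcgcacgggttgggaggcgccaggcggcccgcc
BGN, chrX:152760188-152760346, forward: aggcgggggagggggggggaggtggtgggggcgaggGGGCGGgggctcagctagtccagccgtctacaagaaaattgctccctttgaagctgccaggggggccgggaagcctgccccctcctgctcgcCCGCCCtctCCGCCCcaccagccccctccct
THBS1, chr15:39873030-39873279, forward: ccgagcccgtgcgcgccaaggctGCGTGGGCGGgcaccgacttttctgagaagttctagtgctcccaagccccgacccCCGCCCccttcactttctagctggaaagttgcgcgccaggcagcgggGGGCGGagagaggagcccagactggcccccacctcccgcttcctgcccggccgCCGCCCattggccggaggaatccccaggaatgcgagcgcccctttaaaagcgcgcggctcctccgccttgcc
VCAN, chr5:82767313-82767492, forward: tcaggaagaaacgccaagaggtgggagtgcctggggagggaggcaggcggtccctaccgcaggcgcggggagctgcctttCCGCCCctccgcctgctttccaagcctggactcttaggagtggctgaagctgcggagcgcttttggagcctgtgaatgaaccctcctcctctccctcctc
THBS2, chr6:169654004-169654032, reverse: ggaatgaattaaACGTGcttcctcgtgtg
The stretches of TGFBI, BGN, THBS1 and VCAN are of unequal length (157, 159, 250 and 180 bases), because each ends where the counted exons begin. The 29 bases of THBS2 are not upstream of its counted exons. Like its whole searched window (chr6:169653942-169654191), they lie inside its counted span, which reaches 169654209 on the reverse strand. The motifs marked in the stretches are therefore not to be compared. In its full 250 bases TGFBI has 3 GC boxes, which lie at or beyond the end of the stretch shown.

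To place the members among genes of the same kinds, 7 lists of related matrix genes with 126 genes in all were counted in the same fit. Of these, 81 passed the filter, and 44 were called higher and 13 lower in hypoxia by edgeR's quasi-likelihood test. These are 54.3% and 16.0% of those tested, beside 30.4% and 29.1% of all genes. The lists, too, were chosen with earlier results of these libraries known, so these shares are only a description. As with the members, a list gene near 0 in normoxia could pass the filter only through hypoxia and then only be called higher. Their median log2-fold change was 0.75 and that of all genes tested was 0.028.

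Of 21 matricellular relatives, 11 passed the filter, 8 were called higher and 1 lower, and their median log2-fold change was 1.28. TNXB, coding for tenascin-X, rose from 0.709 ± 0.395 to 3.31 ± 1.02 CPM (log2-fold change 2.18, adjusted p = 0.00334, edgeR), although reads of its partial copy TNXA may be counted for either. WISP2 (CCN5) rose from 3.69 ± 1.25 to 14.2 ± 4.42 CPM (1.94, adjusted p = 0.00115, edgeR). The thrombospondin THBS4 and the testican SPOCK2 rose by 1.71 and 1.28 on the log2 scale (adjusted p = 0.00274 and 0.00482, edgeR). THBS4, with 11, 9 and 4 counts in normoxia, passed the filter only through hypoxia. SPARCL1, the closest relative of SPARC, was the gene called lower, with 15, 19 and 11 counts in normoxia and 4, 8 and 7 in hypoxia. SPARCL1 passed the filter only through normoxia, had a mean under 20 counts and is named because its values were seen. SPP1, POSTN and SMOC2 had 0 counts in every library.

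CYR61 and CTGF, the matricellular genes CCN1 and CCN2, were not past the threshold, with log2-fold changes of 0.31 and 1.57 (adjusted p = 0.500 and 0.102, edgeR). They passed it with the replicate number as a block (adjusted p = 0.00216 and 2.13e-04, edgeR) and were named for that change after their values were seen. CTGF was also more than 3 times higher in replicate 3 than in both other replicates of each condition. Replicates 1, 2 and 3 gave 22, 22 and 68 counts under normoxia, then 56, 56 and 599 under hypoxia.

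Small leucine-rich proteoglycans other than BGN were nearly absent. Of 16, 10 had at most 3 counts in every library and 5 of these had 0 counts in all. The 2 that passed the filter, TSKU and PODNL1, were both called higher, beside 30.4% of all genes. PODNL1 passed it only through hypoxia. TSKU, which codes for tsukushi, was the one of this family with a sizeable level and rose from 38.9 ± 8.60 to 65.1 ± 13.6 CPM (log2-fold change 0.75, adjusted p = 0.0105, edgeR). PODNL1 had between 3 and 32 counts and is named because only 2 were called. Decorin (DCN), the nearest relative of BGN, had at most 1 count in any library.

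Among 25 other proteoglycans and hyaluronan genes, 15 passed the filter, 7 were called higher and 1 lower. GPC3, a glypican, rose from 0.145 ± 0.0536 to 2.07 ± 0.441 CPM (log2-fold change 3.77, adjusted p = 1.36e-04, edgeR). It had 8, 5 and 3 counts in normoxia and passed the filter only through hypoxia. The syndecans SDC3 and SDC2 rose by 1.96 and 1.36 (adjusted p = 0.00298 and 9.38e-05, edgeR), and SDC2 went from 31.8 ± 4.57 to 81.7 ± 1.99 CPM. SRGN (serglycin) rose by 0.87 (adjusted p = 0.0318, edgeR). The gene called lower was the glypican GPC6, which went from 52.2 ± 5.12 to 36.1 ± 4.35 CPM (-0.53, adjusted p = 0.00562, edgeR). The other lecticans of the VCAN family, ACAN, NCAN and BCAN, did not pass the filter, with 21 counts at most. With the block HAS3 was also lower (adjusted p = 0.0316, edgeR, and 0.0611 without it).

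In the list of fibulins and elastic fibre genes, 15 of 19 passed the filter, 9 were called higher and 3 lower. FBLN1, the fibulin most like FBLN2, rose from 0.418 ± 0.167 to 2.10 ± 0.481 CPM (log2-fold change 2.29, adjusted p = 8.89e-04, edgeR). EFEMP2 (fibulin-4) rose from 2.38 ± 1.32 to 16.7 ± 0.720 CPM (2.79, adjusted p = 4.20e-04, edgeR), and the fibrillins FBN3 and FBN2 rose by 3.40 and 2.27 (adjusted p = 6.23e-04 and 0.00103, edgeR). FBLN1, FBN3 and FBN2 had too few counts to pass the filter on their normoxia libraries alone and passed it through hypoxia. Those called lower were LTBP1, EFEMP1 and FBN1. LTBP1, which holds latent TGF-beta in the matrix, fell from 153.2 ± 8.18 to 62.6 ± 7.08 CPM (-1.29, adjusted p = 7.44e-05, edgeR). EFEMP1 (fibulin-3), at 252.1 ± 19.9 CPM in normoxia, fell by 0.38 on the log2 scale (adjusted p = 0.00879, edgeR), and that of FBN1 was -1.22 (adjusted p = 0.0179, edgeR).

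The procollagen processing genes, the setting of PCOLCE2, had 5 of 6 tested genes called higher and 0 lower, beside 30.4% and 29.1% of all genes. PCOLCE, the paralog of PCOLCE2, rose from 3.75 ± 0.496 to 8.501 ± 1.08 CPM (log2-fold change 1.18, adjusted p = 7.03e-04, edgeR). BMP1, the proteinase that both enhance, rose from 10.1 ± 2.41 to 22.7 ± 0.910 CPM (1.17, adjusted p = 9.27e-04, edgeR), and its relative TLL2 rose by 1.52 (adjusted p = 0.00428, edgeR). ADAMTS2 and ADAMTS14, the proteinases that remove the other end of procollagen, had at most 1 count in any normoxia library and between 16 and 40 counts in the hypoxia libraries. They passed the filter only through hypoxia, so that a call in the other direction was not possible for them. TLL2, with 11, 7 and 5 counts in normoxia, also passed it only through hypoxia. ADAMTS2 and ADAMTS14 are named because 5 genes were called. For ADAMTS3 the log2-fold change was 0.50 (adjusted p = 0.194, edgeR).

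Of 16 receptor genes for the members, 12 passed the filter, 6 were called higher and 1 lower. ITGB6, the integrin chain that binds fibronectin and latent TGF-beta, rose from 1.51 ± 0.318 to 17.7 ± 6.80 CPM (log2-fold change 3.57, adjusted p = 1.13e-04, edgeR). LRP1, an endocytic receptor that takes up thrombospondin-1, rose from 7.10 ± 3.26 to 57.0 ± 6.98 CPM (2.99, adjusted p = 2.29e-04, edgeR). ITGB8 and ITGA5, the latter the chain of the main fibronectin receptor, rose by 1.92 and 1.65 (adjusted p = 0.00115 and 1.45e-04, edgeR). ITGB5 fell from 111.4 ± 1.28 to 71.6 ± 18.6 CPM (-0.64, adjusted p = 0.0110, edgeR). For CD47, the thrombospondin receptor at the cell surface, the log2-fold change was 0.00 (SE 0.07, adjusted p = 0.995, edgeR). The hyaluronan receptor CD44 had one of 0.49 (adjusted p = 0.124, edgeR) that passed with the replicate block (adjusted p = 1.10e-04, edgeR), and both were named after their values were seen.

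The enzymes that make chondroitin and dermatan sulfate chains, such as those of BGN and VCAN, split evenly, as all genes tested nearly did. Of 20 tested genes, 7 were called higher and 7 lower, beside 30.4% and 29.1% of all genes. Their median log2-fold change was -0.040, and that of all genes tested was 0.028. Among those called higher were DSE and DSEL, epimerases that turn chondroitin into dermatan sulfate, which rose by 1.63 and 1.42 (adjusted p = 0.00197 and 0.00519, edgeR). XYLT1, which starts the chain, rose by 1.57 (adjusted p = 0.0127, edgeR) and the sulfotransferase CHST3 by 1.28 (adjusted p = 0.0149, edgeR). XYLT1 was at 15.1, 14.5 and 5.56 CPM in normoxia and at 43.6, 42.1 and 19.3 CPM in hypoxia, with replicate 3 lowest in both. CHSY1, a synthase that extends the chain, fell from 104.1 ± 4.83 to 59.2 ± 1.35 CPM (-0.81, adjusted p = 1.30e-04, edgeR). B3GALT6, CHPF2 and CHST11 fell by 0.78, 0.62 and 0.48 on the log2 scale (adjusted p = 0.00406, 0.00365 and 0.0036, edgeR).

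The genes most like each member over the 6 libraries were named by the Pearson correlation of log2 CPM, as a description over libraries that share condition and replicate number. For TGFBI they were LOC284454, CDK20 and PITPNM2 (r of 0.999 each), and for THBS1 KIAA0040, SATB1 and WDR33 (0.999, 0.999 and 0.998). For FN1 they were NUAK1, LOC101928504 and IDS (0.998 each), and for BGN FRAS1, ADGRA2 and TMEM91 (1.00, 0.999 and 0.999). Such values are common for a gene that differs between the conditions, since 219 of 12664 genes had an r over 0.99 with TGFBI and 285 with BGN. For VCAN they were GLO1, PPP6R3 and ZDHHC6, for FBLN2 NUTM2D, RAPGEF2 and ATG9B, and for PCOLCE2 SLC29A4, ADGRE2 and PTGS1. SPOCK1, with its low value in hypoxia replicate 3, had 15 such genes, led by SOX9 (0.995), SMURF2 and ACVR2A. SPARC had 1, which was VIM, followed by RARG and ZNF775. Between the members, THBS1 and VCAN had r = 0.992, TGFBI and PCOLCE2 0.997, and TGFBI and THBS1 -0.963.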

How the data were processed

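The authors extracted total RNA, made stranded mRNA libraries and sequenced them on Illumina HiSeq. Per the labels and the study's methods, reads were checked with FastQC 0.11.5, trimmed with Skewer, aligned to hg19 (GRCh37) with STAR 2.5.2a and counted per RefSeq gene with featureCounts 1.5.1. The deposited values are raw gene counts, 1 file per library. How strand and multiply mapped reads were handled is not given in the sources used here. The deposited exon-union length was used for CPM per kilobase.

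R 4.3.3 was used with edgeR 4.0.16 and DESeq2 1.42.0. Genes were kept by filterByExpr (minimum count 10, minimum total 15), leaving 15657. TMM factors were set, a quasi-likelihood model of edgeR with 1 term (condition) was fitted, and calls were made at 0.05 after Benjamini-Hochberg adjustment. The study names edgeR's exact test, run here as an alternative. Total counts per library were 32989104 to 89883409. Intervals cover counting error only, as they were taken on counts summed over the libraries of each condition. Reads carry no molecular identifiers. Same-numbered libraries deviated together from their condition means (correlations across genes of 0.338, 0.422 and 0.575), so a replicate block was run as an alternative. The main fit did not use the pairs. It gave all errors, calls and adjusted p-values except where the block or another setting is named.

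The members and lists were chosen with earlier results of these data known. Named genes were all members, up to 4 called genes each way per list with the largest change and a mean of at least 20 counts, the marker and hypoxia check genes VIM, CAV1, MSN, CA9 and VEGFA, and, for each member, the 3 most correlated genes whose mean reached 100 counts. Others are said to be named after their values were seen. On simulated counts for the 15657 genes, 92.9% of 98 genes changed by 1 and 99.0% of 100 changed by 2 on the log2 scale were recovered. Of the calls made there, 5.94% were of unchanged genes. The simulation changed far fewer genes than were called in the data, and it had 1 dispersion (0.02) and no replicate effect. Its rates therefore do not carry over to these libraries. Figures come from matplotlib 3.10.9 under Python 3.11.15.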

Additional observations from a re-analysis of the deposited data

How the results depend on the processing

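The 9 members fitted were recomputed with edgeR's exact test, DESeq2, 2 other scalings, no filter, a replicate block and libraries left out. All but SPARC kept their sign throughout, and no member moved by more than its spread except as follows. With libraries left out, TGFBI ranged from 5.87 to 6.28, BGN from 4.74 to 5.88 (highest without normoxia replicate 2), PCOLCE2 from 3.58 to 4.02 and SPARC from -0.69 to 2.04. An alternative chosen after seeing the data, without both libraries numbered 3 and with all genes kept, gave 5.83 for TGFBI. Scaling to the upper quartile shifted every gene up, the median by 0.16 on the log2 scale, and changed the calls to 5972 higher and 3285 lower, from 4765 and 4551, or 64.5% higher in place of 51.1%. With the replicate block 5733 were higher and 5511 lower.

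Counts in lists moved by more than 1.5 times under these settings. In DESeq2, 1 small leucine-rich proteoglycan was higher and 2 of the other proteoglycans were lower. With all genes tested, 11 other proteoglycans were higher. With the replicate block, 2 other proteoglycans were lower and 1 luminal marker was higher, and the block changed the call of the genes named for it and of KRT8, KRT18, CDH1, GPC2, GPC4, CHSY3, UST, CAV1 and GSTP1, and no other call in these lists. Luminal markers called higher were 2 with upper-quartile factors and 1 without replicate 3, with or without the filter, and then 4 other proteoglycans were lower with all genes kept. At a log2-fold change of at least 1 as well, 1 small leucine-rich proteoglycan and 3 other proteoglycans were higher, 3 luminal markers were lower, and 0 receptors, 0 other proteoglycans and 0 chondroitin or dermatan sulfate genes were lower. Of markers of vimentin-positive cells 1 was called higher, 3 with the replicate block and 4 without replicate 3. In the last setting VIM, MSN and GSTP1 passed the filter only through hypoxia. Of fibroblast markers 0 were called lower and 1 without replicate 3. Those marker lists were recomputed under these settings alone. For the matrix, luminal and hypoxia lists, counts under the other alternatives stayed within 1.5 times. The causes were not tested. Depth limits THBS2, FBLN2 and SPOCK1, whose normoxia libraries held at most 4 counts.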
